A study of Mus musculus with 6 samples.

Results

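The genes described here are *Trp53*, which encodes the transcription factor p53, and 34 genes described as its transcriptional targets or relatives. They were chosen by gene symbol and by no cut on measured values, but with earlier results of these data known. All 35 were found among the 19489 genes of the expression table. mRNA was sequenced from 6 libraries of mouse embryonic stem cells (ESCs) in medium with serum and LIF, the cytokine that keeps ESCs self-renewing. The OE libraries came from ESCs stably overexpressing *Dppa3*, a maternal factor of the early embryo, and the Con libraries from control ESCs labelled wild type, with 3 libraries of each. In the study's methods the *Dppa3* coding sequence was driven by a CAG promoter in the vector pLch3.7, the empty vector served as control, and colonies were picked after puromycin selection, so that OE and Con cells alike had been through transfection and selection. Libraries 1 and 2 of each genotype are called D0 here, as in a table of the study, and the third, named OE-D7 or Con-D7, carries a D7 label that no source explains. The ESC line used for sequencing is not named. The strain label is different in every library, from 129S2/SvPas in Con-1 to 129S7/SvPas in OE-D7, and these labels run in sample order. They may be a spreadsheet fill rather than strains, and no comparison uses them.

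p53 is kept low in unstressed cells by the ubiquitin ligase MDM2, whose own gene is a p53 target, and it is stabilised when DNA damage kinases are active. It binds DNA as a tetramer at sites made of a pair of half-sites and activates genes for cell cycle arrest, programmed cell death, DNA repair and metabolic control. ESCs hold much p53 mRNA and protein compared with most differentiated cells, and DNA damage and p53 have been linked to the 2-cell-like state that the study examined.

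To show the DNA element that gives the group its name, the promoters of the members were searched for pairs of p53 half-sites. RefSeq promoters (GRCm38.p6, 250 bases before to 50 bases after each start) were matched by symbol for 27 of the 35 members. The p53 half-site consensus has 3 purines, a C, 2 bases that are A or T, a G and 3 pyrimidines, and it reads the same way on both strands. A site was counted where 2 half-sites stood at most 1 base apart with at most 2 mismatches in all, the C and G of each half-site being required, a setting chosen after the sequences had been scanned. Such a site was found in 5 of the 27 members (18.5%), against 0.807% of 27025 genes, and a half-site without mismatch in 11 members (40.7%), against 9.55% of genes. The members were chosen as p53 targets, so these shares are a description and not a test. The 5 sites are printed 5′ to 3′ on the strand of the gene, with capitals at the C and G in the core of each half-site.
*Cdkn1a*, chr17:29090928-29090947, plus strand: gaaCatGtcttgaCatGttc
*Ccng1*, chr11:40755462-40755481, minus strand: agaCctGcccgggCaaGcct
*Gtse1*, chr15:85859945-85859964, plus strand: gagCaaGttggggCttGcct
*Trp73*, chr4:154097220-154097239, minus strand: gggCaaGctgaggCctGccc
*Bax*, chr7:45467079-45467099, minus strand: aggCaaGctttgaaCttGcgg
The *Cdkn1a*, *Ccng1* and *Gtse1* sites had 1 mismatch each and those of *Trp73* and *Bax* had 2, and only the *Bax* site had a spacer base. The *Cdkn1a* site ended 32 bases before the start of its RefSeq promoter, while the *Gtse1* site ran from 1 base before such a start to 18 bases after it. The *Gtse1* and *Trp73* sites belong to starts inside the genes, which span chr15:85859691-85876573 and chr4:154056249-154139875. In the comparisons below these 5 genes did not move as a group. At D7 *Ccng1* rose and the other 4 did not pass the test, and in replicate 2 *Cdkn1a* rose while *Gtse1* and *Bax* fell and the other two did not pass.

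The deposited table gave between 17408954 and 18176939 estimated counts per library. *Dppa3*, the overexpressed gene, was at 278.79, 278.82 and 130.96 FPKM in OE-1, OE-2 and OE-D7, against 6.09, 3.89 and 26.22 FPKM in Con-1, Con-2 and Con-D7, which fits the labels in every library (FPKM, a read level scaled for transcript length and library depth). OE and Con libraries of the same number deviated together from their genotype means (r = 0.76 to 0.89 across 12565 genes, which are not independent replicates), while those of different number did not (r of -0.03 or below). The ESC markers *Pou5f1* and *Sox2* and the other 8 of their list were present in every library, with a summed level of 1560.42 FPKM in OE-D7 and 1923.64 FPKM in Con-D7, against 2998.36 to 3193.48 FPKM at D0. No source states whether libraries of a group came from separate cultures, so p-values measure the spread between these libraries.

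The group as a whole was well expressed. Mean FPKM over the 6 libraries ran between 0.923 for the death receptor gene *Fas* and 151 for the pore-forming death gene *Bax*, with 8 members above 50, 20 between 10 and 50, 6 between 1 and 10 and *Fas* alone below 1. The median over all 13809 genes tested in 6 libraries was 9.51. *Fas* had 62 and 31 reads in OE-D7 and Con-D7 and 7 to 20 reads in each D0 library, so its values carry the largest counting error of the group, and it fell below the minimum mean FPKM of 0.5 in the fits of 4 libraries.

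**Figure D1:**
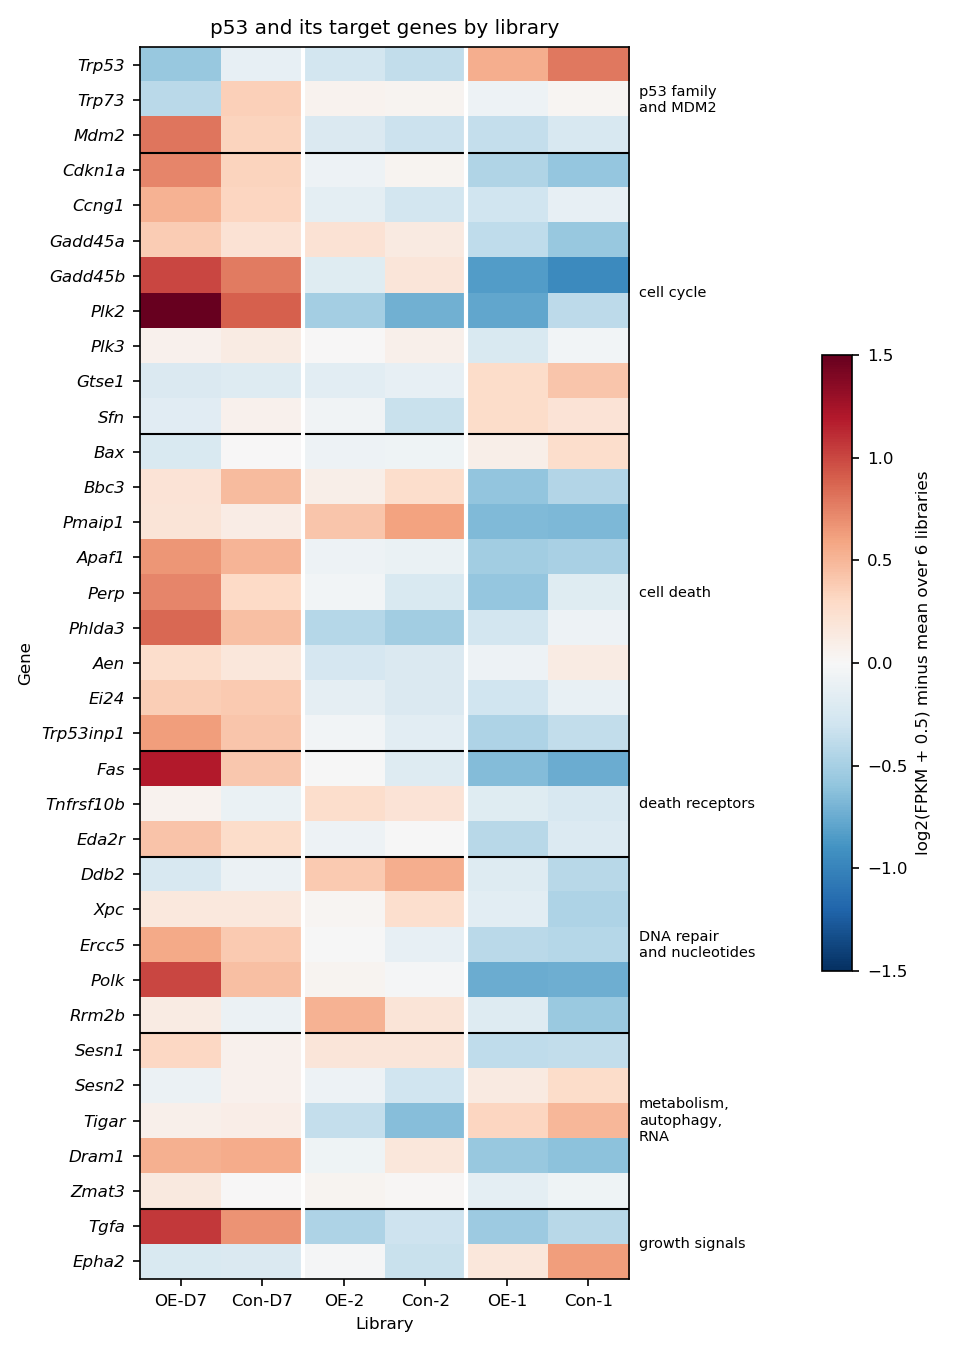
Each cell shows the log2(FPKM + 0.5) of a member in a library minus its mean over the 6 libraries, with genes in rows by role and libraries in columns. *Plk2*, *Tgfa*, *Fas* and *Gadd45b* are highest in the D7 columns, *Trp53* and *Tigar* are high in the columns of replicate 1, and *Pmaip1* and *Ddb2* are highest in those of replicate 2.

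The first comparison asked how the members differed between the D7 and D0 libraries. The D7 libraries are also the third pair, so a D7 difference cannot be told apart from a difference between pairs. OE-D7 and Con-D7 deviated together (r = 0.89) but entered the test as separate libraries. At D7, 9 of 35 members (25.7%) rose and 0 fell, by edgeR with genotype as a term and an adjusted p under 0.05 over all genes. Over all genes 6.77% rose and 3.06% fell. The 9 were the negative regulator *Mdm2*, the cell cycle genes *Ccng1* and *Plk2*, the cell death genes *Apaf1*, *Phlda3*, *Ei24* and *Trp53inp1*, the repair gene *Ercc5* and the growth factor gene *Tgfa*. The median log2 fold change was 0.43 over the members and -0.03 over all genes. *Trp53* itself did not pass, with a log2 fold change of -0.63 ± 0.42 (SE, adjusted p = 0.364). Both D7 libraries were above all 4 D0 libraries in FPKM for 18 members, against 23.6% of all genes, and below them for *Gtse1* alone, against 23.6%. In normalized CPM, which is scaled for depth alone, the members above numbered 17, against 22.5%, and none was below, against 25.6% of all genes.

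With all 6 libraries 1357 of all genes were called at D7, with 1205 without Con-1, 2533 without Con-2, 429 without OE-1 and 365 without OE-2. The D7 count of members rested on few libraries as well, and went up and down with that of all genes. The count of members was 8 without Con-1 and 14 without Con-2, and 1 (*Plk2*) without OE-1 and again without OE-2. Without Con-D7 or without OE-D7, 1 D7 library remained, and the median log2 fold change of the members was 0.45 or 0.40. With only libraries 2 as D0, 17 members rose and 1 fell, against 17.7% and 13.1% of all genes, and with only libraries 1 as D0, 21 rose and 7 fell, against 28.9% and 26.4%. DESeq2 on all 6 libraries called 14 members higher and 0 lower, against 10.9% and 7.21% of all genes, the additional ones being *Cdkn1a*, *Gadd45b*, *Perp*, *Polk* and *Eda2r*.

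The D7 libraries also differed in markers of other cell types, whose part in these results was not tested. Of 9 trophectoderm or simple epithelium markers tested, 6 rose at D7, and the list of 10 summed to 1401.13 FPKM in OE-D7 and 803.67 FPKM in Con-D7, against 47.96 to 109.24 FPKM at D0. Of 9 fibroblast or feeder markers tested, 6 rose, and their list of 12 summed to 327.18 and 135.05 FPKM in OE-D7 and Con-D7, against 34.53 to 61.94 FPKM at D0. *Thy1*, most of the D0 sums, was lower at D7 without passing, at 20.97 and 22.95 FPKM, against 30.84 to 52.99 FPKM. Primitive endoderm markers rose in 4 of 7 cases and fell in 1, with sums of 127.10 FPKM in OE-D7 and 88.56 FPKM in Con-D7, against 38.02 to 47.82 FPKM, and of 10 ESC markers 4 fell. *Fgf5* was the 1 of 8 primed or early lineage markers to rise, and no marker of these lists was at 0 in every library. In bulk RNA, a change in the share of cells of a type cannot be told apart from a change in RNA per cell.

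Within the p53 family and its regulator, *Mdm2* (chr10:117688875-117710758) was at 95.53 FPKM in OE-D7 and 69.03 FPKM in Con-D7, against 46.82 and 42.47 FPKM in OE-2 and OE-1 and 43.73 and 46.30 FPKM in Con-2 and Con-1. Both D7 libraries were above the narrow D0 range, and the log2 fold change was 0.86 ± 0.14 (SE, adjusted p = 0.0254). *Trp53* (chr11:69580348-69591873) was at 56.99 FPKM in OE-D7 and 77.59 FPKM in Con-D7, against 70.22 and 124.02 FPKM in OE-2 and OE-1 and 65.63 and 146.49 FPKM in Con-2 and Con-1. The D7 values overlapped those of libraries 2 and lay below those of libraries 1. *Trp73*, a relative of p53, ran between 1.09 and 2.19 FPKM over the 6 libraries, with its lowest and highest values in OE-D7 and Con-D7.

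Among cell cycle genes, *Plk2*, a polo-like kinase, had the smallest adjusted p of the members at D7. It was at 63.03 FPKM in OE-D7 and 41.16 FPKM in Con-D7, against 15.21 and 12.56 FPKM in OE-2 and OE-1 and 13.05 and 16.59 FPKM in Con-2 and Con-1, a log2 fold change of 1.83 ± 0.22 (adjusted p = 0.0109). *Ccng1*, which encodes cyclin G1, was at 150.56 FPKM in OE-D7 and 130.55 FPKM in Con-D7, against 85.02 to 96.19 FPKM at D0, a log2 fold change of 0.65 ± 0.13 (adjusted p = 0.0392).

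*Cdkn1a* (chr17:29090979-29100722), which encodes the cyclin-dependent kinase inhibitor p21, was at 111.84 FPKM in OE-D7 and 85.29 FPKM in Con-D7, against 63.68 and 49.21 FPKM in OE-2 and OE-1 and 69.28 and 45.05 FPKM in Con-2 and Con-1. Its groups did not overlap, but it missed the threshold with a log2 fold change of 0.79 ± 0.19 (adjusted p = 0.0613 by edgeR). It passed with DESeq2, without Con-2, without the genotype term, and with either pair of D0 libraries alone. The stress gene *Gadd45b* was at 49.04 FPKM in OE-D7 and 41.82 FPKM in Con-D7, against 21.30 and 13.28 FPKM in OE-2 and OE-1 and 27.46 and 12.27 FPKM in Con-2 and Con-1. It also missed the threshold by edgeR with genotype as a term, with a log2 fold change of 1.30 ± 0.33 (adjusted p = 0.065), and its D0 values were spread over a range of more than 2-fold. *Gadd45b* passed with DESeq2, with limma-voom and without the genotype term.

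Of the cell death genes, *Apaf1*, the scaffold of the apoptosome, was at 15.43 FPKM in OE-D7 and 13.86 FPKM in Con-D7, against 9.07 and 6.49 FPKM in OE-2 and OE-1 and 8.90 and 6.67 FPKM in Con-2 and Con-1. It rose with a log2 fold change of 0.91 ± 0.16 (adjusted p = 0.0299), and it overlaps the gene *Ikbip*, which the table also holds, with strand use in counting not stated. *Phlda3*, an inhibitor of the survival kinase AKT, was at 44.16 FPKM in OE-D7 and 33.24 FPKM in Con-D7, against 17.88 and 19.78 FPKM in OE-2 and OE-1 and 16.61 and 22.79 FPKM in Con-2 and Con-1. Its log2 fold change was 0.99 ± 0.21 (adjusted p = 0.0461). *Trp53inp1*, a nuclear protein gene induced by p53, was at 62.49 FPKM in OE-D7 and 53.75 FPKM in Con-D7, against 29.02 to 39.17 FPKM at D0 (log2 fold change 0.77 ± 0.13, adjusted p = 0.0267). The endoplasmic reticulum protein gene *Ei24* had the smallest change of the 9, with 83.93 FPKM in OE-D7 and 85.23 FPKM in Con-D7, against 52.86 to 60.17 FPKM at D0 (0.56 ± 0.11, adjusted p = 0.0344). Values by library of *Ccng1*, *Trp53inp1*, *Ei24*, *Ercc5* and *Perp* are given although the naming rule did not reach them, a choice made after they were seen.

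*Bax*, *Bbc3*, *Pmaip1* and *Perp* did not pass at D7 by edgeR over 6 libraries with genotype as a term. *Bax* was at 128.66 FPKM in OE-D7 and 151.45 FPKM in Con-D7, against 142.08 and 160.01 FPKM in OE-2 and OE-1 and 143.95 and 180.59 FPKM in Con-2 and Con-1. Its log2 fold change of -0.18 ± 0.16 did not pass (adjusted p = 0.495). *Bbc3* and *Pmaip1*, which encode the BH3-only proteins PUMA and NOXA, had log2 fold changes of 0.47 ± 0.25 (adjusted p = 0.27) and 0.13 ± 0.42 (adjusted p = 0.854), and their D7 values overlapped those of D0. The tetraspan membrane protein gene *Perp* was at 34.52 FPKM in OE-D7 and 25.35 FPKM in Con-D7, against 13.59 to 20.03 FPKM at D0. Its log2 fold change of 0.78 ± 0.20 missed the threshold by edgeR with genotype as a term (adjusted p = 0.0685). *Perp* passed by DESeq2 and, by edgeR, without the genotype term.

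By edgeR over 6 libraries with genotype as a term no death receptor gene passed at D7, while DESeq2 called *Eda2r*. Without the genotype term edgeR called *Fas* and *Eda2r*. *Fas* ranged from 0.26 to 2.41 FPKM over the 6 libraries, was highest in OE-D7 and next in Con-D7, and had a log2 fold change of 1.83 ± 0.49 (adjusted p = 0.0757). *Eda2r*, a receptor for ectodysplasin A2, was at 19.21 FPKM in OE-D7 and 17.32 FPKM in Con-D7, against 13.46 and 10.52 FPKM in OE-2 and OE-1 and 14.18 and 12.20 FPKM in Con-2 and Con-1 (0.60 ± 0.17, adjusted p = 0.083). *Tnfrsf10b*, the TRAIL receptor gene of the mouse, was at 21.44 FPKM in OE-D7 and 19.33 FPKM in Con-D7, inside its D0 range of 17.38 to 24.96 FPKM.

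Among DNA repair genes, *Ercc5*, an endonuclease of nucleotide excision repair, was at 19.38 FPKM in OE-D7 and 17.09 FPKM in Con-D7, against 9.49 to 12.88 FPKM at D0, and rose with a log2 fold change of 0.73 ± 0.15 (adjusted p = 0.0389). *Polk*, a polymerase that copies past damaged bases, was at 20.79 FPKM in OE-D7 and 14.08 FPKM in Con-D7, against 10.50 and 5.87 FPKM in OE-2 and OE-1 and 10.01 and 5.94 FPKM in Con-2 and Con-1. It missed the threshold by edgeR with genotype as a term at 1.10 ± 0.29 (adjusted p = 0.0719), and passed by DESeq2 and without that term. *Ddb2* and *Xpc*, which recognise damage in the same repair pathway, and *Rrm2b*, a ribonucleotide reductase subunit, had D7 values inside their D0 ranges.

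Of the growth signal genes, *Tgfa*, a ligand of the EGF receptor, was at 3.95 FPKM in OE-D7 and 2.88 FPKM in Con-D7, against 1.04 and 0.96 FPKM in OE-2 and OE-1 and 1.21 and 1.10 FPKM in Con-2 and Con-1. It rose with a log2 fold change of 1.65 ± 0.23 (adjusted p = 0.0156). The receptor kinase gene *Epha2* did not pass (-0.37 ± 0.31, adjusted p = 0.459), nor did any of the 5 genes of metabolism, autophagy and RNA binding. Of these, *Dram1*, which acts in autophagy, had the largest change, at 1.05 ± 0.40 (adjusted p = 0.149).

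**Figure D2:**
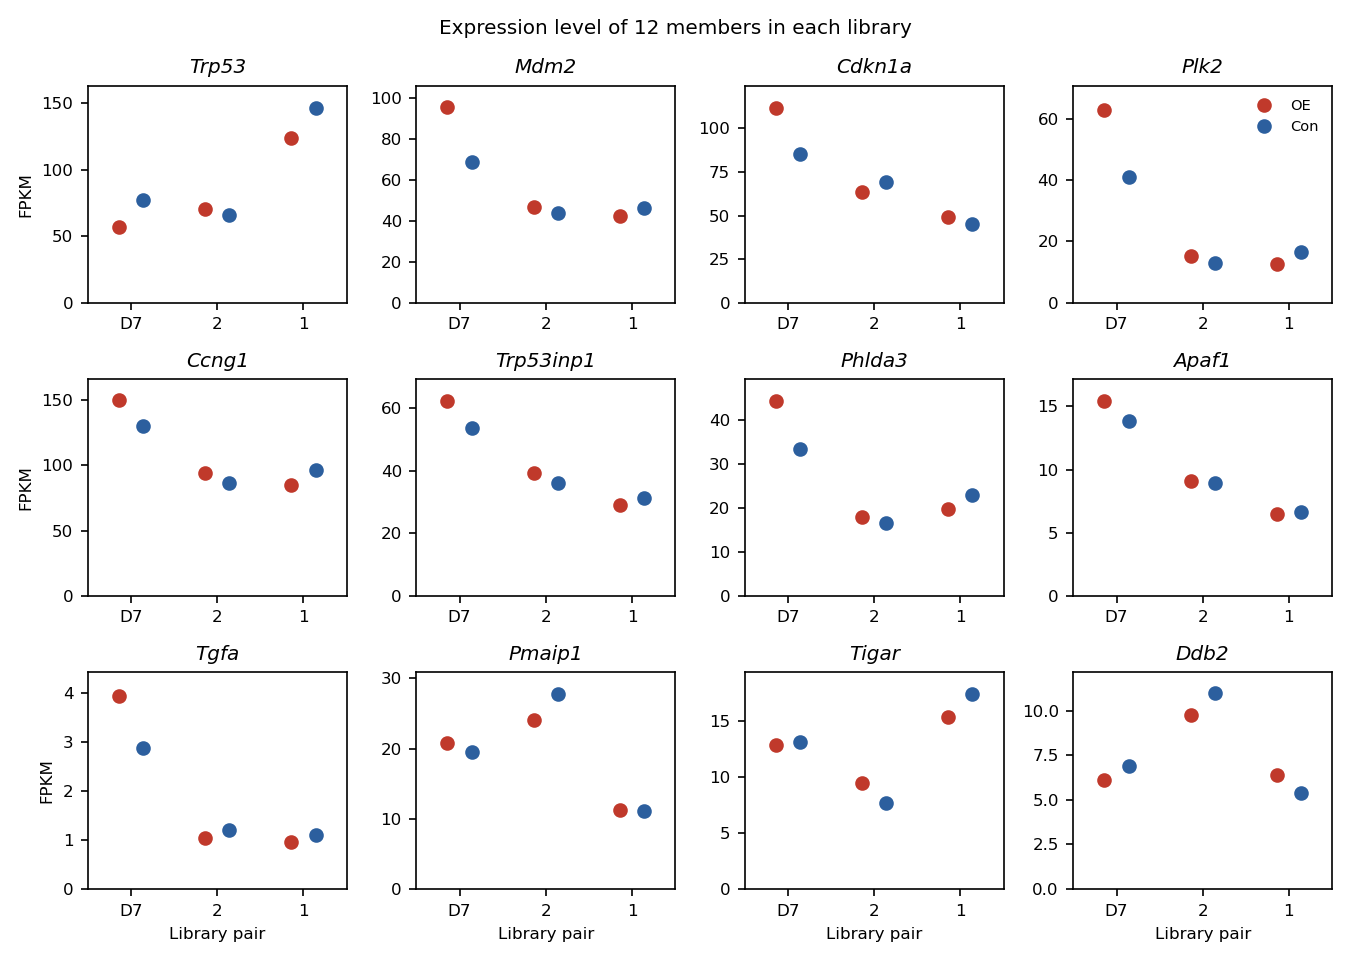
FPKM of 12 members in each library (vertical axis, from 0, with its own scale for each gene) by library pair on the horizontal axis, with OE in red left of Con in blue. *Mdm2* and *Plk2* stand apart in the D7 pair, with 95.53 and 69.03 FPKM of *Mdm2* in OE-D7 and Con-D7, while *Trp53* and *Tigar* are highest in pair 1 and *Pmaip1* is highest in pair 2.

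The same contrast within each genotype has 1 D7 library against 2, and a lone library was assumed to vary like the other groups. In OE ESCs 0 of 35 members passed, against 0.210% of all genes higher and 0 lower, and at an unadjusted p under 0.05 15 members were higher, against 10.2%, and 0 lower, against 5.63%. In Con ESCs 0 of 35 members passed, against 0.0217% of all genes, and at an unadjusted p under 0.05 7 were higher, against 6.47%, and 0 lower, against 3.23%. No other tool was run on these contrasts. The median log2 fold change of the members was 0.43 in OE ESCs and 0.40 in Con ESCs. *Plk2* came nearest, with 2.19 ± 0.25 in OE ESCs (adjusted p = 0.0749) and 1.45 ± 0.25 in Con ESCs (adjusted p = 0.24). For *Mdm2* the values were 1.10 ± 0.16 in OE ESCs and 0.59 ± 0.16 in Con ESCs, and for *Cdkn1a* 1.00 ± 0.28 and 0.57 ± 0.28. With a D0 library of the same genotype left out, 1 library stood against 1. The median log2 fold change of the members within OE ESCs was then 0.49 without OE-1 and 0.75 without OE-2. Within Con ESCs it was 0.43 without Con-1 and 0.47 without Con-2. Leaving out a Con library keeps all OE libraries, so the within-OE medians of 0.44 without Con-1 and 0.45 without Con-2 could hardly differ.

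The difference between the genotypes in the D7 contrast was tested as an interaction. It passed for 0 of 35 members and 0 of all genes by edgeR, and at an unadjusted p under 0.05 for 0 members, against 0.340% of all genes higher and 0.159% lower. For *Plk2* the difference was 0.74 ± 0.37 and for *Trp73* it was -0.98 ± 0.45. With the replicate number as a block, a fit added after seeing the data that left 1 residual degree of freedom, 0.934% of all genes had a higher OE effect at D7 and 0.507% a lower one, but still 0 of 35 members. At an unadjusted p under 0.05 there were 7 members higher and 3 lower, against 6.60% and 5.29% of all genes, and DESeq2 and limma-voom with the block also called 0 members. *Plk2* came nearest, at 0.73 ± 0.19 (adjusted p = 0.0578), followed by *Mdm2* at 0.51 ± 0.14 (adjusted p = 0.0719).

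The second comparison set replicate 2 against replicate 1, which hold 1 OE and 1 Con library each. Libraries of the same number deviated together, so its p-values do not measure a spread between independent pairs. Here *Trp53* itself fell, to 70.22 FPKM in OE-2 and 65.63 FPKM in Con-2, against 124.02 FPKM in OE-1 and 146.49 FPKM in Con-1, a log2 fold change of -1.08 ± 0.09 (SE, adjusted p = 1.37e-07). Of the 34 members tested, 16 rose in replicate 2 and 9 fell, the risers including *Cdkn1a*, *Pmaip1*, *Bbc3* and *Ddb2* and the fallers including *Bax*, *Gtse1*, *Sfn* and *Tigar*. Over all genes 26.0% rose and 25.4% fell. The members called lower made up 26.5% of those tested, close to the share of all genes, and those called higher made up 47.1%. In FPKM 20 members did not overlap and were higher in replicate 2, against 46.4% of all genes, and 9 were lower, against 29.6%. In normalized CPM these were 17 members, against 36.7%, and 9, against 39.3%.

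This fit had 1 residual degree of freedom and leaned on the spread shared across genes. DESeq2 called 14 members, 7 higher and 7 lower, against 11.7% and 15.1% of all genes, and the sources give no reason for a difference between libraries of different number. It did not call *Apaf1*, *Dram1*, *Eda2r*, *Epha2*, *Ercc5*, *Phlda3*, *Rrm2b*, *Sesn1*, *Tnfrsf10b*, *Trp53inp1* and *Xpc*. Leaving out a library, with no genotype term, also ended the calls of *Ercc5* and *Trp53inp1* in each case, of *Dram1* without Con-1, Con-2 or OE-1, of *Phlda3* and *Xpc* without Con-1 or Con-2, of *Sesn1* without Con-2 or OE-1, of *Bax*, *Aen* and *Rrm2b* without Con-1, and of *Apaf1* and *Eda2r* without OE-1.

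Markers of other cell types differed between the replicates as well, and their part in this comparison was not tested. The trophectoderm or simple epithelium list summed to 102.28 FPKM in OE-2 and 109.24 FPKM in Con-2, against 61.49 FPKM in OE-1 and 47.96 FPKM in Con-1, with 4 of 7 markers higher and 0 lower. The fibroblast or feeder list summed to 55.73 and 61.94 FPKM in OE-2 and Con-2, against 40.81 and 34.53 FPKM in OE-1 and Con-1, with 3 of 5 higher and 1 lower. Most of each sum came from *Thy1*, at 48.97 and 52.99 FPKM in OE-2 and Con-2 and 36.88 and 30.84 FPKM in OE-1 and Con-1. Of 10 ESC markers 1 rose and 5 fell in replicate 2, with sums of 3045.55 FPKM in OE-2 and 3193.48 FPKM in Con-2, against 3046.93 FPKM in OE-1 and 2998.36 FPKM in Con-1.

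Among cell cycle genes, *Cdkn1a* rose in replicate 2, with 63.68 FPKM in OE-2 and 69.28 FPKM in Con-2, against 49.21 FPKM in OE-1 and 45.05 FPKM in Con-1 (log2 fold change 0.40 ± 0.09, adjusted p = 0.000977). The stress gene *Gadd45a* was at 30.28 and 28.57 FPKM in OE-2 and Con-2, against 19.87 and 17.34 FPKM in OE-1 and Con-1, and at 34.18 and 30.41 FPKM in OE-D7 and Con-D7. Its log2 fold change of 0.57 ± 0.12 (adjusted p = 0.00113) in replicate 2 was smaller than the 0.83 ± 0.14 of *Gadd45b* (adjusted p = 0.000117), a difference that was not tested.

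*Gtse1*, a microtubule-binding protein gene of the G2 phase, fell, with 66.94 FPKM in OE-2 and 68.31 FPKM in Con-2, against 90.15 FPKM in OE-1 and 99.59 FPKM in Con-1 (-0.58 ± 0.08, adjusted p = 1.17e-05). Its D7 values of 63.80 FPKM in OE-D7 and 65.05 FPKM in Con-D7 were just below those of replicate 2. *Sfn*, which encodes 14-3-3 sigma, was at 43.15 and 35.47 FPKM in OE-2 and Con-2, against 54.36 and 51.53 FPKM in OE-1 and Con-1 (-0.53 ± 0.09, adjusted p = 0.000148), and at 39.64 and 46.76 FPKM in OE-D7 and Con-D7. *Sfn* at D7 thus lay within its D0 range.

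*Pmaip1* and *Bbc3* rose in replicate 2. *Pmaip1* was at 24.08 FPKM in OE-2 and 27.71 FPKM in Con-2, against 11.21 FPKM in OE-1 and 11.12 FPKM in Con-1, and at 20.73 and 19.47 FPKM in OE-D7 and Con-D7. Its log2 fold change of 1.12 ± 0.11 was the largest rise of the members in this comparison (adjusted p = 6.37e-07). *Bbc3* was at 16.66 FPKM in OE-2 and 18.95 FPKM in Con-2, against 10.25 FPKM in OE-1 and 11.40 FPKM in Con-1, and at 18.16 and 22.07 FPKM in OE-D7 and Con-D7 (0.64 ± 0.12, adjusted p = 0.000457). For both genes the replicate 1 libraries were the lowest of the 6.

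*Bax*, whose product forms the pore that BH3-only proteins trigger, fell in replicate 2 with a log2 fold change of -0.35 ± 0.08 (adjusted p = 0.00182). *Aen*, a nuclease gene of apoptosis, was at 45.13 FPKM in OE-2 and 46.05 FPKM in Con-2, against 50.79 FPKM in OE-1 and 58.43 FPKM in Con-1, and at 64.49 and 60.78 FPKM in OE-D7 and Con-D7. It fell in replicate 2 (-0.36 ± 0.08, adjusted p = 0.00175) and did not pass at D7 (0.32 ± 0.17, adjusted p = 0.264). *Phlda3* fell in replicate 2 by edgeR (-0.40 ± 0.13, adjusted p = 0.0162) but not by DESeq2, and *Apaf1* rose by edgeR (0.35 ± 0.10, adjusted p = 0.0074) but not by DESeq2, while both rose at D7. Both comparisons use the D0 libraries, so they are not independent.

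*Tnfrsf10b* was at 24.96 and 23.88 FPKM in OE-2 and Con-2, against 18.19 and 17.38 FPKM in OE-1 and Con-1 (0.36 ± 0.09, adjusted p = 0.00311). *Eda2r* rose by the same amount on the log2 scale, 0.36 ± 0.09 (adjusted p = 0.0041). Of the death receptor genes, *Fas* was at 0.77 FPKM in OE-2 and 0.61 FPKM in Con-2, against 0.31 FPKM in OE-1 and 0.26 FPKM in Con-1, and was not tested.

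All 5 genes of DNA repair and nucleotide supply rose in replicate 2 by edgeR, where 26.0% of all genes did, and DESeq2 called *Ddb2* and *Polk* of them, where it called 11.7% of all genes higher. *Ddb2* was at 9.77 FPKM in OE-2 and 10.96 FPKM in Con-2, against 6.37 FPKM in OE-1 and 5.37 FPKM in Con-1, and at 6.12 and 6.88 FPKM in OE-D7 and Con-D7 (0.73 ± 0.15, adjusted p = 0.000747). It overlaps the gene *Acp2*, which the table also holds. *Rrm2b* was at 3.83 FPKM in OE-2 and 2.94 FPKM in Con-2, against 2.14 FPKM in OE-1 and 1.56 FPKM in Con-1, and at 2.79 and 2.35 FPKM in OE-D7 and Con-D7 (0.74 ± 0.16, adjusted p = 0.00106). *Polk* rose by 0.70 ± 0.12, *Xpc* by 0.38 ± 0.14 and *Ercc5* by 0.28 ± 0.11, on the log2 scale and with adjusted p-values of 0.00013, 0.0262 and 0.0396.

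Metabolic targets went both ways in replicate 2. *Tigar*, a sugar bisphosphatase that slows glycolysis, was at 9.46 FPKM in OE-2 and 7.71 FPKM in Con-2, against 15.39 FPKM in OE-1 and 17.46 FPKM in Con-1, and at 12.91 and 13.15 FPKM in OE-D7 and Con-D7 (-1.04 ± 0.12, adjusted p = 4.05e-06). Its D7 values lay between those of the replicates. *Sesn2*, which restrains the growth kinase complex mTORC1, was at 25.59 FPKM in OE-2 and 21.81 FPKM in Con-2, against 29.63 FPKM in OE-1 and 32.85 FPKM in Con-1, and at 25.43 and 28.21 FPKM in OE-D7 and Con-D7 (-0.50 ± 0.10, adjusted p = 0.000568). Its paralogue *Sesn1*, which rose by edgeR but not by DESeq2, was at 11.57 FPKM in OE-2 and 11.56 FPKM in Con-2, against 7.66 FPKM in OE-1 and 7.74 FPKM in Con-1, and at 12.61 and 10.59 FPKM in OE-D7 and Con-D7 (0.39 ± 0.12, adjusted p = 0.0147).

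*Dram1*, which overlaps *Washc3*, was at 0.99 FPKM in OE-2 and 1.25 FPKM in Con-2, against 0.55 FPKM in OE-1 and 0.52 FPKM in Con-1, and at 1.75 and 1.80 FPKM in OE-D7 and Con-D7 (0.94 ± 0.31, adjusted p = 0.0172). The receptor kinase gene *Epha2* fell, with 26.43 FPKM in OE-2 and 21.14 FPKM in Con-2, against 30.18 FPKM in OE-1 and 41.64 FPKM in Con-1, and 22.88 and 23.08 FPKM in OE-D7 and Con-D7 (-0.69 ± 0.13, adjusted p = 0.000262). Con-1 was the highest library for *Epha2*, as it was for *Trp53*, *Tigar*, *Bax*, *Sesn2* and *Gtse1*. The last riser was *Trp53inp1*, at 0.22 ± 0.08 (adjusted p = 0.0276).

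The members that did not pass between replicates included several of those that rose at D7. *Mdm2* had a log2 fold change of -0.03 ± 0.08 between replicates 2 and 1 (adjusted p = 0.806), *Ccng1* of -0.14 ± 0.08 (adjusted p = 0.191), *Plk2* of -0.13 ± 0.14 (adjusted p = 0.434) and *Tgfa* of 0.04 ± 0.22 (adjusted p = 0.908). *Perp*, *Plk3*, *Ei24*, *Zmat3* and *Trp73* did not pass either. *Plk3*, a kinase gene that overlaps *Tctex1d4*, ranged from 14.44 to 18.45 FPKM over the 6 libraries, and *Zmat3*, an RNA-binding protein gene, ranged from 12.50 to 15.53 FPKM.

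**Figure D3:**
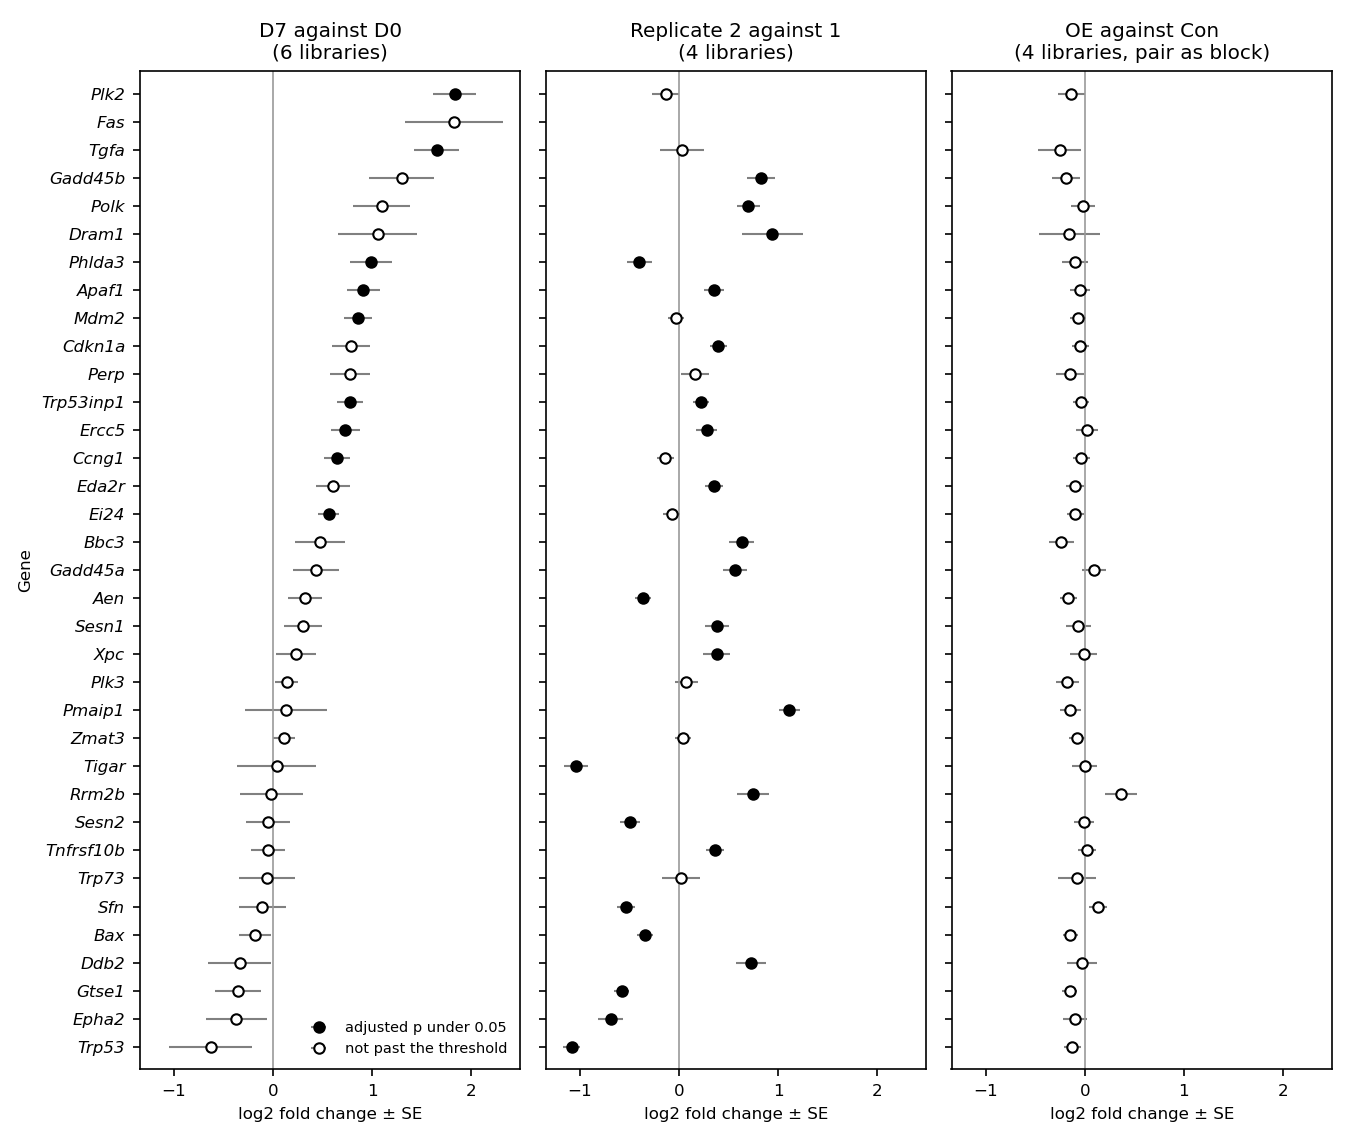
Log2 fold changes of the members with their standard errors (horizontal axis) in 3 comparisons, with genes ordered by the D7 change and filled points for an adjusted p under 0.05. There are 9 filled points at D7, 25 between replicates on both sides of 0 and none between OE and Con with the pair as a block, and *Fas* was tested only at D7.

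The third comparison, OE against Con, addressed the question of the study, what *Dppa3* overexpression changes in ESCs. The study reported more p53 and γH2AX in OE ESCs as protein, and less after *Dppa3* knockdown, by western blot and immunofluorescence. The values here are mRNA. From RNA-seq the study also reported genes of DNA recombination and repair to be enriched among those upregulated in OE ESCs. Its counts of changed genes used a change past 1.5-fold, unlike the adjusted p used here. Over libraries 1 and 2, 0 of 34 members and 0 of all 13494 genes passed by edgeR without a block. *Dppa3* itself was not called, at 278.79 and 278.82 FPKM in OE-1 and OE-2, against 6.09 and 3.89 FPKM in Con-1 and Con-2. This fit missed even the overexpressed gene, so its count of 0 cannot show that the members were unchanged. At an unadjusted p under 0.05 there were 0 members, against 0.430% of all genes higher and 0.0296% lower. The median log2 fold change was -0.08 over the members and -0.01 over all genes. *Trp53* had a log2 fold change of -0.18 ± 0.53, *Cdkn1a* of -0.06 ± 0.24 and *Mdm2* of -0.07 ± 0.14. With *Tgfa* as the single exception, below Con in both OE libraries, FPKM of OE-1 and OE-2 overlapped those of Con-1 and Con-2 for every member. None was above in both, against 10.9% of all genes, and 4.69% of all genes were below in both. In normalized CPM *Zmat3*, *Plk3* and *Trp73* joined *Tgfa*, so that 4 members were below in both, against 8.48% of all genes, and again 0 above, against 7.23%.

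With the replicate number as a block, which takes out the difference between replicates, 0.763% of all genes rose in OE and 0.126% fell. Of the 34 members 0 did either, and with shares this small that count does not set them apart from all genes. The smallest adjusted p of a member was 0.554, for *Rrm2b* at 0.37 ± 0.16, which was also the only member with an unadjusted p under 0.05, where 4.32% of all genes were higher and 3.63% lower. The blocked log2 fold change was -0.12 ± 0.09 for *Trp53* (adjusted p = 0.801), -0.04 ± 0.09 for *Cdkn1a* (adjusted p = 0.952) and -0.07 ± 0.08 for *Mdm2* (adjusted p = 0.918). DESeq2 and limma-voom also called 0 members, with the block and without it. Over 3 OE and 3 Con libraries, a two-sided exact permutation test on log2(FPKM + 0.5) gave a difference of -0.19 for *Trp53* (p = 0.6) and of 0.13 for *Cdkn1a* (p = 0.8), where 0.1 is the smallest p that this design allows. The permutation ignored the pairs and pooled D7 with D0, so these p-values also hold the spread between pairs.

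Pair by pair, values are without replicates. In the D7 pair OE-D7 was higher than Con-D7 for 21 members and lower for 14, with a median log2 ratio of normalized CPM of 0.11. In pair 2 OE-2 was higher than Con-2 for 18 and lower for 17, with a median of 0.01, and in pair 1 OE-1 was higher than Con-1 for 9 and lower for 26, with a median of -0.18. All genes had medians of -0.01, -0.02 and -0.02 in the D7 pair, pair 2 and pair 1, and 48.4%, 45.6% and 45.8% of them were higher in OE. In FPKM the members higher in OE numbered 21, 22 and 12 in the same order, against 54.5%, 56.1% and 60.5% of all genes. Past 1.5-fold, no member was found in pairs 1 and 2 in normalized CPM or FPKM. In the D7 pair *Fas* was at 0.95 and *Trp73* at -1.06 in log2 CPM. In FPKM 2 members were past 1.5-fold higher in that pair and 1 lower, against 5.00% and 1.72% of all genes. *Trp73* had 1.09 FPKM in OE-D7 and 2.19 FPKM in Con-D7. Of all genes in normalized CPM, 5.84% were past 1.5-fold higher and 3.75% lower in the D7 pair, 3.83% and 2.33% in pair 2, and 4.84% and 1.80% in pair 1.

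**Figure D4:**
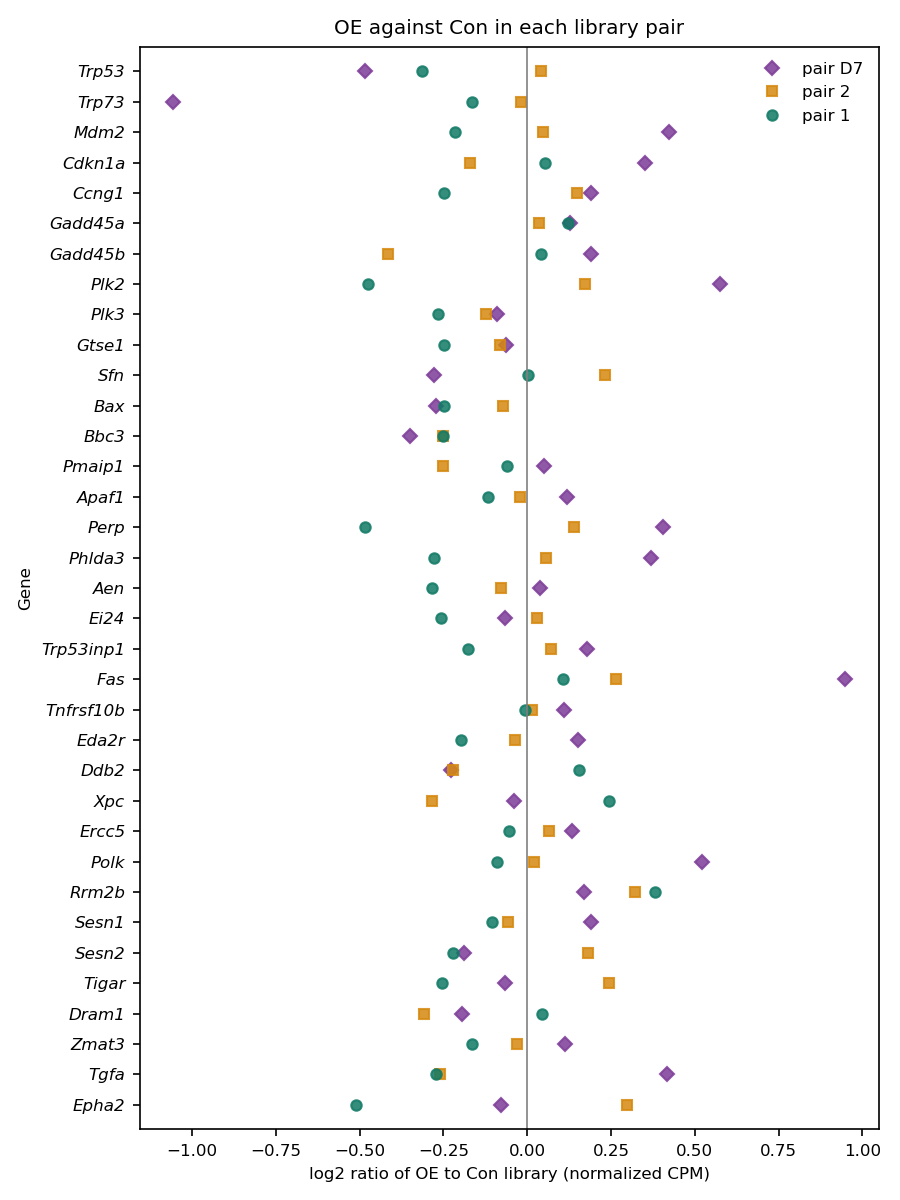
Log2 ratio of the OE to the Con library of the same number (horizontal axis, normalized CPM with a prior count of 2) for each member, with purple diamonds for the D7 pair, orange squares for pair 2 and green circles for pair 1. Most circles lie left of 0 (26 of 35), while 45.8% of all genes were higher in OE-1 than in Con-1. The outermost points are *Fas* at 0.95 and *Trp73* at -1.06 in the D7 pair.

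Other genes of the pathway were taken from lists of genes that are no members, to be read beside the 6.77% of all genes that rose at D7 and the 3.06% that fell. Of 27 other p53 targets tested, 5 rose, among them *Abhd4*, *Btg2*, *Lif* and *Thbs1*, and *Tnfrsf18* fell, with a median log2 fold change of 0.00. *Thbs1*, a matrix glycoprotein gene, was at 51.74 FPKM in OE-D7 and 30.48 FPKM in Con-D7, against 0.44 to 0.52 FPKM at D0. *Btg2*, an antiproliferative gene, was at 33.32 FPKM in OE-D7 and 23.62 FPKM in Con-D7, against 12.15 to 16.77 FPKM at D0.

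Of 30 tested regulators of p53 level or activity, the ribosomal protein gene *Rpl23* and the methyltransferase gene *Setd7* rose at D7 and none fell, with a median of -0.18. Of 20 cell cycle genes that are repressed through p21 and the DREAM complex, 0 passed in either direction, with a median of -0.13. Among 19 core apoptosis genes, the BH3-only genes *Bcl2l11* and *Bmf* rose and *Bak1*, which like *Bax* forms pores, fell, with a median of -0.06. *Bak1* was at 36.33 FPKM in OE-D7 and 37.05 FPKM in Con-D7, against 58.62 to 67.06 FPKM at D0.

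Between replicates 2 and 1, 6 of the 30 regulators rose and 12 fell, 3 of 26 other targets rose and 5 fell, 3 of 20 cell cycle genes rose and 8 fell, and 5 of 19 apoptosis genes rose and 4 fell. Of all genes, 26.0% rose and 25.4% fell in this comparison. In OE against Con with the block, 0 genes of these 4 lists passed, where 0.763% of all genes rose and 0.126% fell.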

How the data were processed

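The analysis used 6 mRNA libraries (BGISEQ-500), 3 OE and 3 Con. The authors mapped reads to mm10 with Bowtie2 and counted genes with RSEM per their methods, whereas HISAT and GRCm38.p6 stand in the submitters' processing notes, without versions of the tools in either source. The authors deposited estimated counts per gene, not normalized, and FPKM, scaled for transcript length and depth. No sample column was left unused. Estimated counts, 17408954 to 18176939 per library, were rounded and tested with edgeR 4.0.16 (R 4.3.3, TMM, quasi-likelihood F test) over all genes that averaged 0.5 FPKM or more, 13494 genes for 4 libraries and 13809 for 6, with a Benjamini-Hochberg adjusted p under 0.05 as the threshold. Code was tested on simulated data.

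Groups came from the sample titles. OE was compared with Con over 4 libraries, D7 with D0 over 6 with genotype as a term and within each genotype, and replicate 2 with replicate 1 over 4 with genotype as a term. Pairing was checked on 12565 genes. Deviations from the genotype mean correlated at 0.88, 0.76 and 0.89 between libraries of the same number and at -0.03 or below between others, so the numbers were taken to pair the libraries, although no source states it and the deviations of 3 libraries sum to 0. edgeR's common coefficient of biological variation for OE against Con was 0.283, or 0.0804 with the block.

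Alternatives were DESeq2 1.42.0, limma-voom 3.58.1, other size factors and filters, other D0 libraries and each library left out. The naming rule gave values by library to *Trp53*, *Cdkn1a*, *Mdm2* and the 24 members with the smallest adjusted p in any comparison. Members and lists were chosen with earlier results of these data known. In 26 rows the symbol had become a date and was replaced by way of the gene identifier. The values of 1 listed gene are not reported here.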

Additional observations from a re-analysis of the deposited data

Results flagged for a closer look

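In CPM the log2 ratio of replicate 2 to replicate 1 had opposite signs in OE and Con ESCs for 9 of 35 members. For 5 of them it did so in FPKM as well. With 1 library on each side, the difference was not tested. The same count was not made over all genes, so it does not set the members apart. For *Plk2* the ratio was 0.15 in OE and -0.49 in Con ESCs, a difference of 0.65 in log2 CPM. *Perp* had 0.44 in OE and -0.19 in Con ESCs, a difference of 0.62. The ratio of *Ccng1* was 0.02 in OE and -0.37 in Con ESCs, 0.40 apart. For *Ei24* it was 0.03 in OE and -0.25 in Con ESCs, 0.29 apart, and for *Mdm2* 0.07 in OE and -0.20 in Con ESCs, 0.26 apart. None of these 5 genes passed in the comparison of the replicates over both genotypes.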

How the results depend on the processing

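Depth was even between libraries and limits mainly *Fas*. The smallest unit of replication sets the other limits, since D7 has 1 library of each genotype and the comparison of replicates has 1 residual degree of freedom. The cause of the changes below was not tested, beyond fewer libraries where one was left out. No setting called a member in OE against Con or in the difference of the OE effect.

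In OE against Con, the count of all genes called was 0 without the block. With the replicate block it was 120 by edgeR, 34 by DESeq2 and 121 by limma-voom, and 1 over 6 libraries with the replicate block. DESeq2 without the block called 2, and leaving out each library in turn gave 1 to 90. Over 6 libraries the log2 fold change of *Cdkn1a* was 0.078 with D7 as a term and 0.090 with the replicate block, and that of *Mdm2* was 0.094 and 0.097. With a library left out, *Trp53* ranged from -0.71 to 0.58, *Cdkn1a* from -0.29 to 0.23 and *Mdm2* from -0.138 to 0.0125, with reversed values of 0.58 without Con-1 and 0.20 without OE-2 for *Trp53*, 0.23 without Con-2 and 0.078 without OE-1 for *Cdkn1a*, and 0.0125 without Con-1 for *Mdm2*. In the exact permutation comparison, *Trp53* ranged from -0.52 to 0.15, being 0.15 without Con-1 and 0.041 without OE-D7, and *Cdkn1a* from -0.20 to 0.39, being -0.12 without Con-1 and -0.20 without OE-D7.

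In D7 against D0, 14 members and 2494 genes passed with DESeq2, 15 and 2311 without a genotype term, 28 and 7598 with only libraries 1 as D0, and 18 and 4302 with only libraries 2, where *Trp53* was at 0.0236. All 9 members called were also called in each of these settings. Without a filter on low values 7 members and 1598 genes passed, and *Phlda3* and *Ei24* did not. With a library left out, members ranged from 0 to 14 and all genes from 0 to 2533. Within Con ESCs all genes called were 15 without a filter on low values and 7 with filterByExpr, and 91 to 928 with a library left out, with 0 to 2 members. Within OE ESCs they were 78 without a filter, and 63 to 1406 with a library left out, with 0 to 11 members. For the difference of the OE effect, leaving out a library, an alternative chosen after seeing the data, gave 0 to 8 genes. With the replicate block, also added later, it was 199 genes by edgeR, 21 by DESeq2 and 94 by limma-voom.

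Between replicates 2 and 1, DESeq2 called 14 members, all among the 25, and 3608 genes. With a library left out and no genotype term, 3973 to 5788 genes passed and 17 to 23 of the 25 members remained, and *Mdm2* ranged from -0.13 to 0.0641, being 0.0641 without Con-1 and 0.00406 without Con-2.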
